A study of Rattus norvegicus with 6 samples.

Results

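The genes described are 4 red cell genes measured in rat renal cortex, Hba-a1, Hbb, Hbb-b1 and Alas2. They were chosen by symbol after their difference between the groups of these arrays had been seen, through the RefSeq accession each array probe carries. They had 8 probes among 61657 non-control probes, 2 for Hba-a1, 2 for Hbb, 3 for Hbb-b1 and 1 for Alas2, and the 4 genes are among 32663 gene entries that were tested. The treated animals were 3 male Sprague-Dawley (Crl:CD(SD)) rats given anthraquinone, a tricyclic quinone, at 1000 mg/kg/day for 4 weeks, and the controls were 3 rats of the same strain and sex given corn oil for 4 weeks. All were 5 weeks old when bought. Cortex RNA of every rat was labelled with Cy3 and put on a separate 1-colour Agilent array, and the series states that each group holds 3 biological replicates.

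Haemoglobin, the oxygen carrier of red blood cells, is a tetramer of alpha-like and beta-like globin chains, each holding a haem group. Hba-a1 encodes an adult alpha chain, and Hbb and Hbb-b1 encode adult beta chains. Alas2 encodes the erythroid form of 5-aminolevulinate synthase, the mitochondrial enzyme that starts haem synthesis in red cell precursors. Mature red cells have no nucleus, and reticulocytes, the young cells just released from the marrow, still carry globin and Alas2 messenger RNA. Renal cortex is rich in blood vessels, so RNA of this kind reaches a whole-tissue sample with the blood that stays in it. In such a sample, more cells of a type and more RNA per cell cannot be told apart.

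The globin genes are families of near copies, which limits what a probe can name. In the RefSeq table of assembly GRCr8, beta-like Hbb-bs, Hbb-b1, Hbbl1, Hbb-b2 and Hbb lie side by side on chromosome 1, and alpha-like Hba-a3, Hba-a2 and Hba-a1 lie near each other on chromosome 10. Alas2 lies on the X chromosome. No probe carried an accession of Hba-a2, Hbb-b2 or Hbbl1. The probe letters were not analysed here, so signal from these near copies could not be told from that of Hba-a1, Hbb-b1 and Hbb. The 250 bases before the RefSeq start of the 3 globin members are shown because these genes moved together on the arrays. They are written 5′ to 3′ in build GRCr8, and capitals mark matches, on either strand, to the core bound by the erythroid factor GATA1 (the letters AGATAA, the letters AGATAG, the letters TGATAA and the letters TGATAG) and to CACCC, the core bound by the erythroid factor KLF1.
Hba-a1, chr10:15842581-15842830, minus strand: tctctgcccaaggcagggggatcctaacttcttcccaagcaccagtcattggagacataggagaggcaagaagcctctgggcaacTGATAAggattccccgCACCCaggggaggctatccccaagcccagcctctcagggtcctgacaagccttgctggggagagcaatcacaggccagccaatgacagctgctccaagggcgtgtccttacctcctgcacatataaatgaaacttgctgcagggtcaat
Hbb, chr1:167663722-167663971, minus strand: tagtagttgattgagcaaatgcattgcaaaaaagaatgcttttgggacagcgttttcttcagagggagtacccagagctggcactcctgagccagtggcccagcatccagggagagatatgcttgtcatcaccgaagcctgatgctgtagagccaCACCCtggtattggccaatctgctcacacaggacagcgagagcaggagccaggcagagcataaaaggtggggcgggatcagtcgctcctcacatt
Hbb-b1, chr1:167643521-167643770, minus strand: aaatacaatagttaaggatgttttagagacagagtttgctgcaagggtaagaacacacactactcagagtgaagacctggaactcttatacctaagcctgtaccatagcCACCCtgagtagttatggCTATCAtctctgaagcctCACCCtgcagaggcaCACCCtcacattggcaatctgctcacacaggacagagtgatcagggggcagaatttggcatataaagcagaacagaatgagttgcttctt
Hba-a1 held a match to TGATAA and a match to CACCC, and Hbb-b1 held TGATAG on the opposite strand and 3 matches to CACCC. Hbb held a CACCC match and none of the GATA letters in this window. Across 27457 windows of the same length, 26.7% held a GATA match, 49.4% a CACCC match and 11% both. The window of Hbb-b1 had 97.2% of aligned positions in common with that of Hbb-b2 and 93.6% with that of Hbb-bs, against 58.8% with that of Hbb. The window of Hba-a1 had 96.4% in common with that of Hba-a2. The printed Hbb-b1 window ends at a start that lies 57 bases inside the annotated gene. For Alas2 the table's start lies 4800 bases inside the annotated gene, so that window was not printed. A match describes these letters and is no evidence that a factor binds there.

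The anthraquinone arrays were dimmer as a group. The 75th percentile of the processed signal was 844 to 880 on the anthraquinone arrays and 903 to 1191 on the corn oil arrays, and 64.2 to 66.1% of probes were well above background with anthraquinone, against 68.7 to 70.7% with corn oil. Neither measure overlapped between the groups, and their part in the differences below was not tested. Markers of the tissue were present: all 9 proximal tubule markers passed the filter on dim probes, and their summed normalized level was 1806 to 2189 with anthraquinone and 2003 to 2217 with corn oil. Differences were positive in 1 of 5 podocyte genes, in 0 of 4 genes of the thick ascending limb and distal tubule (median -0.27) and in 0 of 6 medulla genes (median -0.15), and 0 of these 15 passed with limma. The array of corn oil replicate 1 was on a slide of its own, scanned on another day than the slide that held the remaining 5. Row 1 held corn oil replicates 2 and 3, and row 2 held every other array. Signals are given below as log2 of the processed intensity minus the 75th percentile of the array, so that 0 is the level of a probe at that percentile and each unit is a doubling. The number of arrays limits the precision of each value.

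The alpha globin signal was higher in every rat given anthraquinone. On the brighter Hba-a1 probe, A_64_P032499, the normalized log2 signal was 9.31, 9.06 and 8.90 on anthraquinone arrays 1, 2 and 3, against 8.25, 8.38 and 8.66 on corn oil arrays 1, 2 and 3. The lowest anthraquinone array lay above the highest corn oil array by 0.23. The group means were 9.09 ± 0.21 with anthraquinone and 8.43 ± 0.21 with corn oil (SD, n = 3 each), a difference of 0.66, which is 1.58-fold. The dimmer Hba-a1 probe, A_64_P032502, gave 5.55, 5.12 and 4.74 with anthraquinone and 4.31, 4.12 and 4.50 with corn oil. Its difference was 0.825 on the log2 scale, 1.77-fold, again without overlap of the groups.

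The beta globin probes showed the same pattern. The brighter Hbb probe, A_64_P028036, was at 8.54, 8.26 and 8.13 with anthraquinone and at 7.53, 7.58 and 7.82 with corn oil. Its means were 8.31 ± 0.21 and 7.64 ± 0.16 (SD, n = 3 each, anthraquinone and corn oil), a difference of 0.66. The dimmer Hbb probe, A_44_P306307, was at 4.65, 4.25 and 4.02 with anthraquinone and at 3.35, 3.35 and 3.72 with corn oil, a difference of 0.83. On both probes every anthraquinone array lay above every corn oil array.

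Hbb-b1, the beta adult major chain gene, had 3 bright probes. The brightest, A_64_P088393, was at 8.41, 8.13 and 7.97 with anthraquinone and at 7.36, 7.43 and 7.64 with corn oil. Its means were 8.17 ± 0.22 and 7.48 ± 0.14 (SD, n = 3 each, anthraquinone and corn oil), a difference of 0.69 or 1.62-fold. The other probes differed by 0.77 (A_64_P088392) and 0.65 (A_44_P139956), and neither had overlapping groups.

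Alas2 had the largest difference of the 4 genes when each was taken by its brightest probe. Its only probe, A_44_P541461, was at 1.94, 1.33 and 1.20 with anthraquinone and at 0.50, 0.56 and 0.83 with corn oil. The means were 1.49 ± 0.40 and 0.63 ± 0.18 (SD, n = 3 each, anthraquinone and corn oil), a difference of 0.86 or 1.81-fold. The gap between the nearest arrays of the groups was 0.36. Anthraquinone replicate 1 stood highest, and without it the difference was 0.63.

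**Figure D1:**
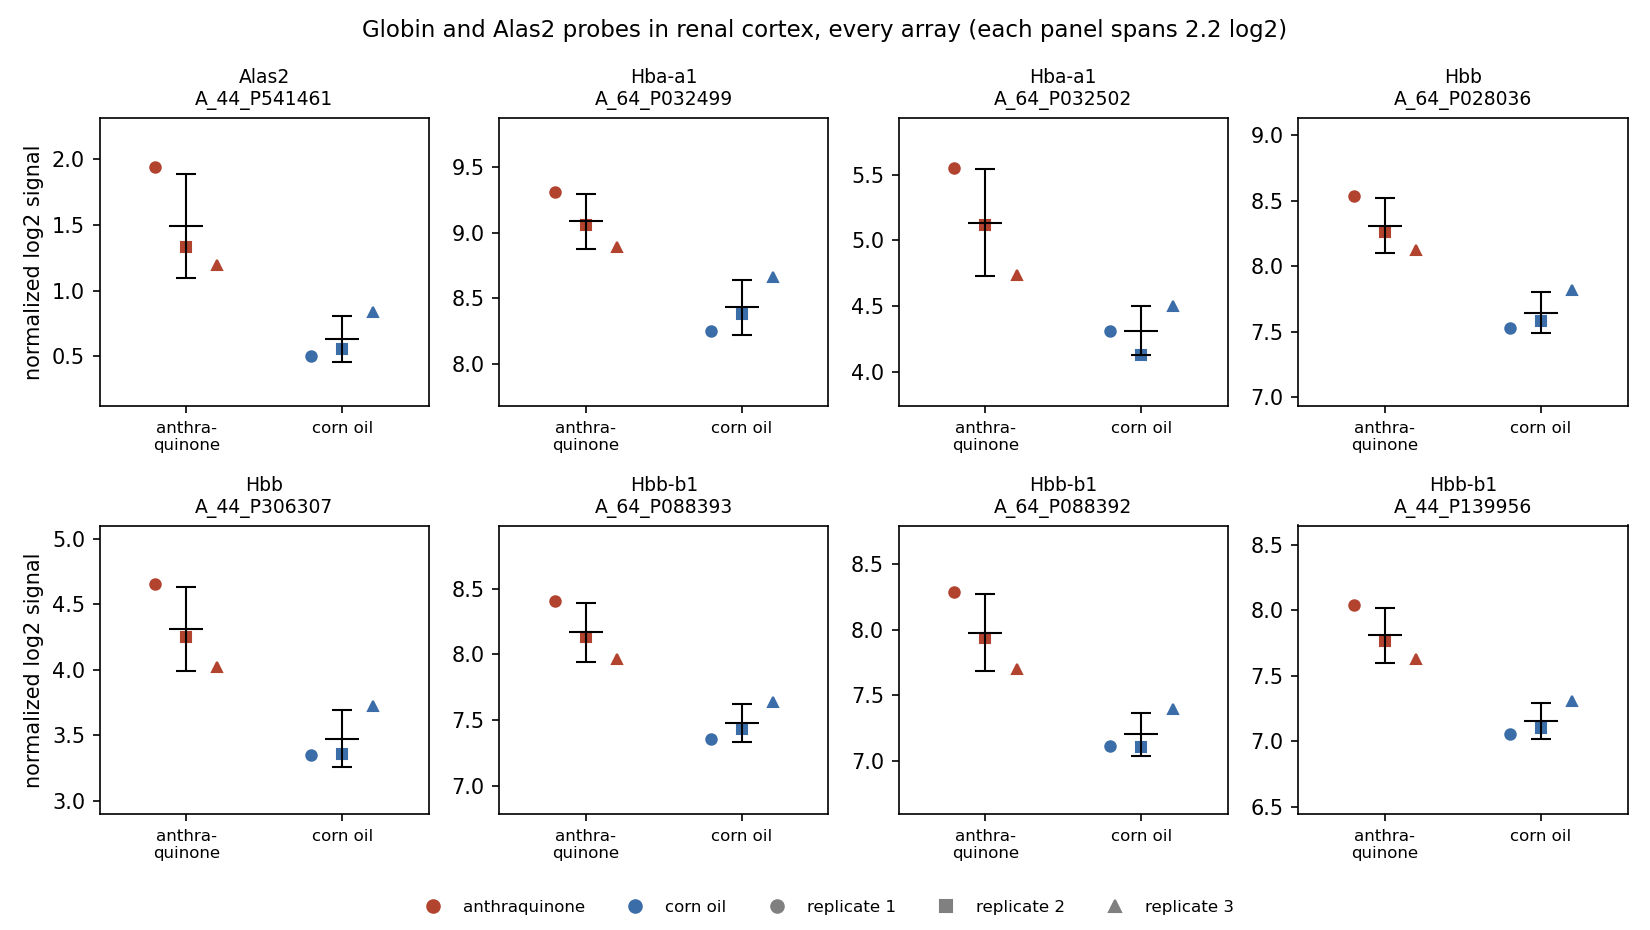
Normalized log2 signal (y axis) of the 8 probes of Alas2, Hba-a1, Hbb and Hbb-b1 on each of the 6 arrays, anthraquinone in red and corn oil in blue, with the group mean and SD as black bars and the replicate given by the symbol. In every panel the 3 anthraquinone arrays lie above the 3 corn oil arrays, from the Alas2 panel, with a difference of 0.86, to the narrowest, the Hbb-b1 probe A_44_P139956, with 0.65.

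All 8 member probes were well above background on all 6 arrays, none of their spots was saturated, and none had overlapping groups. Of all gene entries, 15.0% were higher with anthraquinone without overlap, and 1.11% were so and at least 1.5-fold higher. In the other direction these shares were 10.2% and 2.25%. The members were chosen on this contrast, so their differences are a description and no p-value is given for them. Among all entries, 0.686% had a difference at least as large as that of Alas2, 1.23% as that of Hbb-b1, 1.37% as that of Hbb and 1.42% as that of Hba-a1.

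The order of the arrays was shared by the probes. Anthraquinone replicate 1 was the highest and replicate 3 the lowest anthraquinone array on 8 of 8 member probes, and corn oil replicate 3 was the highest corn oil array on 8 of 8. Over the 28 pairs of member probes the correlation across the 6 arrays was 0.956 to 1, with a median of 0.992. That figure holds the difference between groups that do not overlap. After each group's own mean was taken away it was 0.835 to 0.998 over the 28 pairs, and 0.912 to 0.98 between Alas2 and the 7 globin probes. These are descriptions over 6 arrays, whose probes share the array, its scaling and, among the globins, sequence.

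The balance of alpha and beta signal did not move with treatment beyond its spread. The log2 ratio of the brightest Hba-a1 probe to the brightest Hbb probe was 0.77, 0.80 and 0.77 with anthraquinone and 0.72, 0.80 and 0.84 with corn oil, and the group means differed by -0.01. Only its change between groups can be read, since probes differ in brightness for reasons other than transcript level. The ratio of Alas2 to Hba-a1 was -7.37, -7.73 and -7.70 with anthraquinone and -7.75, -7.83 and -7.83 with corn oil, a difference of 0.20. Its groups did not overlap, and anthraquinone replicate 1 stood apart from the other 5 arrays. This ratio was taken with the brightest Hba-a1 probe, and it depended on that choice. The dimmer Hba-a1 probe differed by 0.825, close to the 0.859 of Alas2, and against it the groups overlapped.

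Globin probes took up a larger part of the light on anthraquinone arrays. The 12 probes of Hba-a1, Hba-a3, Hbb, Hbb-b1, Hbb-bs and Hbe2 held 0.837, 0.667 and 0.578% of the summed processed signal of anthraquinone arrays 1, 2 and 3, and 0.427, 0.432 and 0.530% of that of corn oil arrays 1, 2 and 3. This share is one of probe signal, not of transcripts. The brightest member spot reached 71.7% of the scanner's saturation value, on anthraquinone replicate 1, against at most 49.8% on a corn oil array.

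The size of the globin difference depended on the scaling. After quantile normalization the brightest probes of Hba-a1, Hbb and Hbb-b1 differed by 0.49, 0.47 and 0.51, while Alas2, which is much dimmer, differed by 0.85. All 8 probes again had groups that did not overlap, where 12.0% of all entries were higher without overlap under that scaling. On the processed signal with no scaling at all, chosen after seeing the data, the differences were 0.43 for Hba-a1, 0.44 for Hbb, 0.47 for Hbb-b1 and 0.63 for Alas2, and 7 of the 8 probes had no overlap, where 0.931% of entries were higher without overlap. Without scaling the median difference over all entries was -0.22, against 0.01 with it, and the members lay above that median by about as much as before. The exception was the dimmer Hba-a1 probe, with a signal of 22531 on anthraquinone replicate 3 against 23632 on corn oil replicate 1. Within the slide that holds both groups, which leaves out corn oil replicate 1, the differences were 0.56 for Hba-a1, 0.61 for Hbb, 0.63 for Hbb-b1 and 0.79 for Alas2. Against corn oil replicate 1 alone, which lay in the same row position as the anthraquinone arrays but on another slide, they were 0.84, 0.78, 0.81 and 0.99. On the shared slide the row and the treatment cannot be told apart, and in the other comparison the slide and the treatment cannot. The part of slide and row in the result was therefore not tested.

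**Figure D2:**
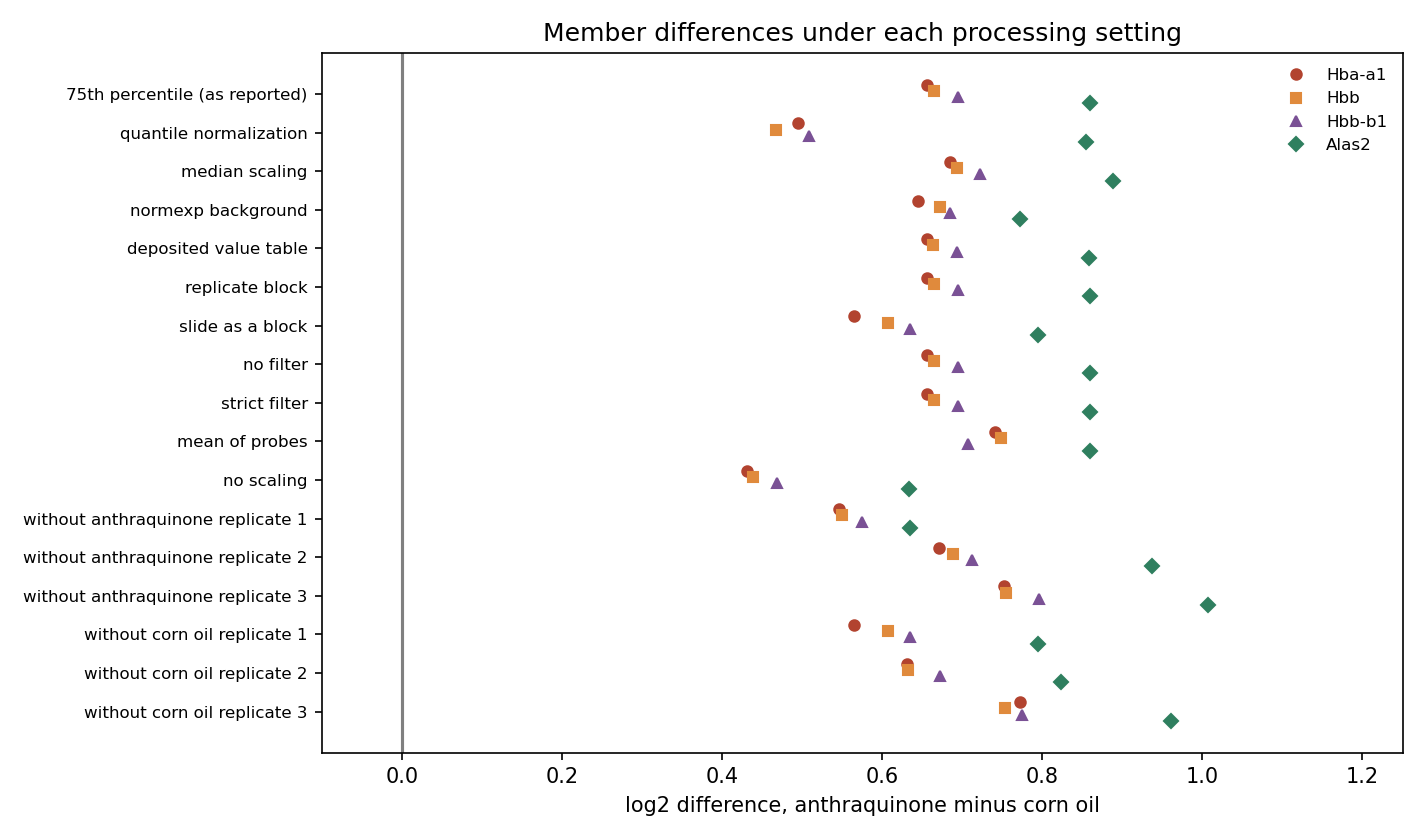
Difference in normalized log2 signal (x axis, anthraquinone minus corn oil) of Hba-a1, Hbb, Hbb-b1 and Alas2 under each processing setting and with each array left out (y axis). Every point is above 0, and the lowest are those with no scaling between arrays, at 0.43 for Hba-a1.

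The rest of the globin family was read from a list of other globin genes, of which 14 symbols were in the table, 9 had a probe and 8 were tested. The list was written with earlier results of these data known, as were all lists below. With limma and adjustment over all entries, 0 of the 8 passed, and 3 had an unadjusted p under 0.05, all of them higher. Of all entries 0.0276% passed, 0.0153% as higher and 0.0122% as lower, and 17.1% had an unadjusted p under 0.05, 9.47% higher and 7.65% lower. The 3 were adult or epsilon-like globins that share sequence with the members. Hbb-bs, another adult beta gene, was at 6.96, 6.64 and 6.37 with anthraquinone and 5.63, 5.67 and 5.90 with corn oil, a difference of 0.93 ± 0.17 (SE, limma adjusted p = 0.157). Hbe2, named as an epsilon globin, differed by 0.80 ± 0.19 (limma adjusted p = 0.191) and Hba-a3, an alpha globin, by 0.75 ± 0.20 (limma adjusted p = 0.203). All 3 genes had groups without overlap, though Hba-a3 overlapped on the signal with no scaling.

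Probes of these paralogs did not all read alike. A second Hbe2 probe was at -1.80, -2.01 and -2.14 with anthraquinone and -2.61, -2.70 and -2.32 with corn oil, far dimmer than the probe above, with a difference of 0.56. A second Hba-a3 probe was not well above background on corn oil replicate 1 and gave overlapping groups. The embryonic-type globin genes Hbg1 and Hbz were dim and differed by -0.20 and -0.18 (limma adjusted p = 0.531 and 0.701), and Hbe1 was not well above background on any array. Myoglobin (Mb), neuroglobin (Ngb) and cytoglobin (Cygb), oxygen-binding globins of muscle, nerve and connective tissue cells, differed by -0.16, -0.25 and 0.31, none past the test. Over the 8 genes the median difference was 0.07, against 0.01 over all entries, and with no scaling it was below 0, as was that over all entries. Without corn oil replicate 3 it was 0.23.

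Among the enzymes of haem synthesis, Alas2 stood apart in size from the rest. The list had 9 tested genes and a median difference of 0.13, which was -0.01 after quantile normalization. Of the 8 enzymes other than Alas2, 0 passed with limma and 0 had an unadjusted p under 0.05. Alas1, the form of the first enzyme used outside red cells, was at 5.25, 5.03 and 5.32 with anthraquinone and 5.41, 4.94 and 5.01 with corn oil, a difference of 0.08 ± 0.15 (SE, limma adjusted p = 0.822). Fech, the ferrochelatase gene that puts iron into the ring at the last step, differed by 0.17 ± 0.08 (limma adjusted p = 0.356), and Cpox, which encodes coproporphyrinogen oxidase, by 0.20. The groups of Alas1 overlapped. Of the difference between Alas2 and the other enzymes no test was made.

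Genes of the red cell membrane and its skeleton mostly had positive differences, and none passed the test. Of 14 such genes with a probe 13 were tested, 11 had positive values and 2 negative ones, and 0 passed with limma, with an unadjusted p under 0.05 in 4 that were higher and 1 that was lower, where 17.1% of all entries had such a p. The median was 0.33, against 0.01 over all entries, but 0.57 without corn oil replicate 3, 0.22 with the slide as a block and 0.10 with no scaling. Of the 13, 5 had no overlap upward, where 15.0% of all entries did. Rhd, the Rh blood group antigen gene, was at -1.51, -1.93 and -2.08 with anthraquinone and -2.99, -3.01 and -2.60 with corn oil. Its difference of 1.03 ± 0.19 (SE, limma adjusted p = 0.157) was larger than that of any member. Add2, encoding the skeleton protein beta-adducin, was at -1.93, -2.63 and -2.74 with anthraquinone and at -3.28, -3.99 and -3.41 with corn oil, a difference of 1.12 ± 0.28 (limma adjusted p = 0.193). A second Add2 probe, dim on both groups, gave -0.21 with overlap.

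Slc4a1, the band 3 anion exchanger, is made by red cells and also by acid-secreting cells of the collecting duct. It was at 2.99, 2.77 and 2.80 with anthraquinone and at 2.41, 2.64 and 2.47 with corn oil, a difference of 0.35 ± 0.10 (SE, limma adjusted p = 0.211), and a second probe gave 0.37. The groups did not overlap on either probe. Epb42, encoding protein 4.2 of the membrane skeleton and chosen after its values were seen, differed by 0.72 ± 0.33 with overlap. Rhag, the Rh-associated glycoprotein gene, was well above background on 1 anthraquinone array on 1 of its probes and nowhere else. In the other direction, Cd47, a surface signal that many cell types carry, differed by -0.53 ± 0.11 (limma adjusted p = 0.182) and was likewise chosen after its values were seen.

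Genes of late erythroblasts and reticulocytes gave a mixed picture. Of 24 tested, 15 were positive and 9 negative, the median was 0.04, 0 passed with limma, and 4 had an unadjusted p under 0.05, all higher, where 17.1% of all entries had such a p and 9.47% were higher. Without corn oil replicate 3 the median was -0.0020, and without anthraquinone replicate 1 it was 0.0069. Hemgn, an erythroid nuclear protein gene, was at -2.95, -3.57 and -4.48 with anthraquinone and at -4.67, -4.89 and -3.97 with corn oil, a difference of 0.84 ± 0.43 (SE, limma adjusted p = 0.366). Ahsp, which encodes the chaperone of free alpha globin, was at 1.26, 0.83 and -0.10 with anthraquinone and 0.10, -0.30 and 0.31 with corn oil, a difference of 0.63 ± 0.36 (limma adjusted p = 0.414). In both genes anthraquinone replicates 1 and 2 were above all corn oil arrays and replicate 3 was not. Tfrc, the transferrin receptor gene through which erythroid cells take up iron, differed by 0.22 ± 0.14 (limma adjusted p = 0.458).

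**Figure D3:**
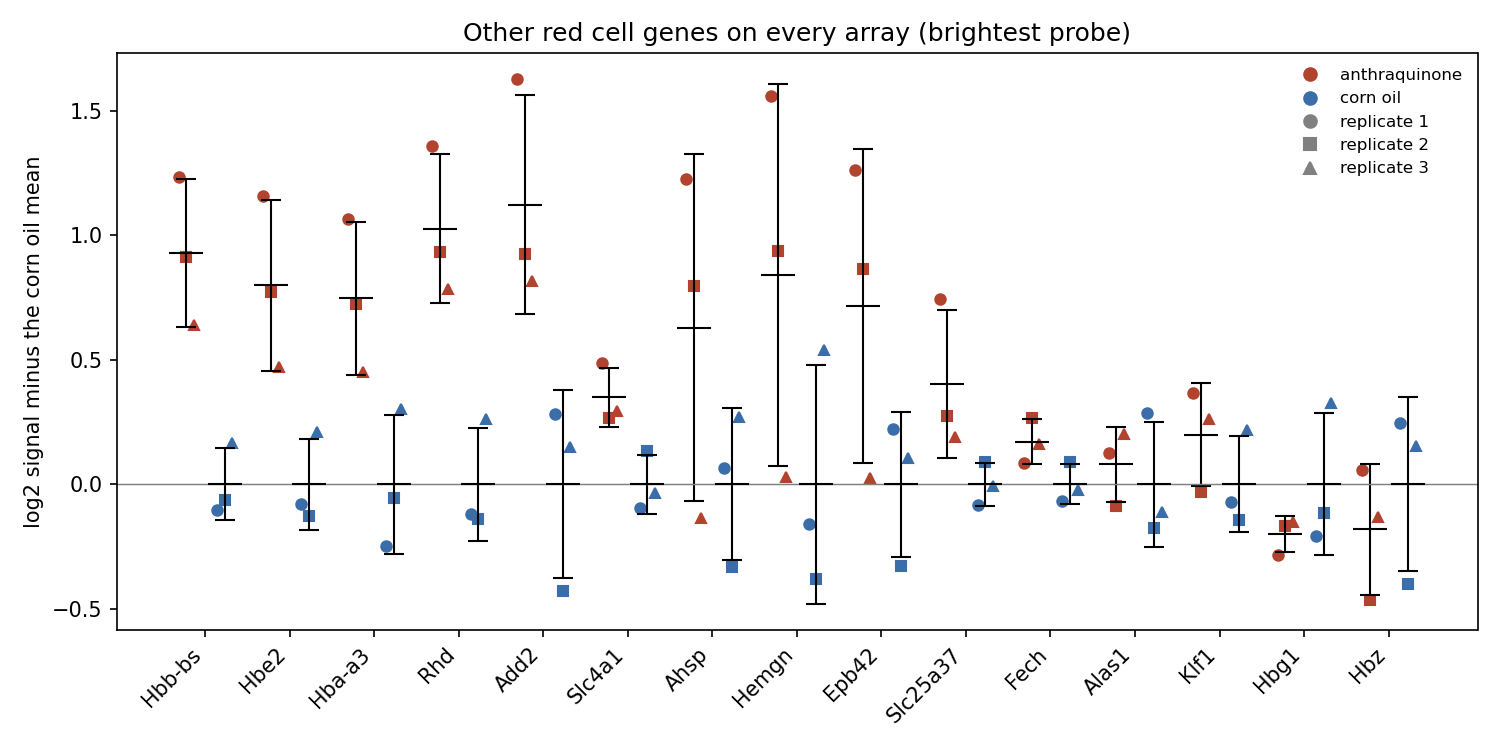
Log2 signal of the brightest probe of 15 other red cell genes on each array, minus the mean of the corn oil arrays (y axis), anthraquinone in red and corn oil in blue, with group mean and SD as black bars. Hbb-bs, Hbe2, Hba-a3, Rhd and Add2 have differences of 0.75 to 1.12 and groups that do not overlap, whereas Ahsp, Hemgn and Epb42 overlap, with anthraquinone replicate 3 near the corn oil arrays.

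The transcription factors of erythroid cells were dim or flat. Gata1, the master factor of the lineage, was not well above background on any array. Klf1, the activator of adult beta globin, was at -4.03, -4.43 and -4.14 with anthraquinone and at -4.47, -4.54 and -4.18 with corn oil, a difference of 0.20 ± 0.15 (SE, limma adjusted p = 0.521), and a second probe gave -0.21. Of 8 tested factors 0 passed with limma, 1 had an unadjusted p under 0.05, lower, where 7.65% of all entries were so, and the median was -0.06, or -0.11 without corn oil replicate 1. That factor was Lmo2, which endothelium also uses, at -0.35. Tal1, its partner, gave 0.29 on its brightest probe and values between -0.38 and 0.48 on others, so its direction was not settled.

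Erythropoietin, the kidney hormone that drives red cell production, could not be read. Epo had 2 probes and all spots of both were too dim to call in each of the 6 samples, so these arrays give no difference for it. Its receptor gene Epor differed by -0.21 ± 0.13 (SE, limma adjusted p = 0.458) on the brighter of its probes and by 0.46 on the other, so its direction was not settled. Of 11 tested genes of the erythropoietin axis 0 passed with limma, and 2 were higher and 2 lower at an unadjusted p under 0.05, where 17.1% of all entries had such a p. Egln3, an oxygen-sensing prolyl hydroxylase gene, was at -1.66, -1.95 and -1.91 with anthraquinone and at -1.21, -1.24 and -1.16 with corn oil, a difference of -0.64 ± 0.10 (limma adjusted p = 0.128). Cish, a cytokine signal inhibitor, differed by -0.49 with overlap.

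Of the genes that clear haem and haemoglobin, 1 of 11 passed the test. That was Hmox1, the haem oxygenase gene, at 0.80, 0.52 and 0.61 with anthraquinone and -1.78, -1.30 and -1.40 with corn oil, which rose by 2.14 ± 0.15 on the log2 scale (SE, limma adjusted p = 0.0311). It lost the call when any of the 6 arrays was left out. Of the 11 genes 6 were positive and 5 negative, with a median of 0.05 that ranged from -0.10 without anthraquinone replicate 2 to 0.20 without corn oil replicate 3. The haptoglobin gene Hp and the haemopexin gene Hpx, whose products bind free haemoglobin and haem in plasma, were dim and differed by -0.02 and 0.12, neither past the test. Cd163, the macrophage receptor for haemoglobin bound to haptoglobin, was well above background on 1 of the 6 arrays, a corn oil array, on 1 of its 3 probes.

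Markers of other blood cells and of vessels had median differences between -0.24 and 0.13, which moved with single arrays. The macrophage median was -0.08 without anthraquinone replicate 2, the platelet median then -0.13, the neutrophil median -0.11 without corn oil replicate 1, and the lymphocyte median -0.15 without anthraquinone replicate 1. With each array left out the endothelial median lay between -0.08 and 0.05. Of 7 tested platelet genes the median difference was 0.04, and their summed normalized level was 2.31, 3.38 and 3.08 with anthraquinone and 2.63, 2.76 and 3.11 with corn oil. The platelet chemokine genes Pf4 and Ppbp differed by -0.17 and 0.04. Of 7 neutrophil genes the median was -0.24, with S100a8 at -0.24 and S100a9 at -0.12, and of 11 lymphocyte genes it was 0.02. Of 10 monocyte and macrophage genes the median was 0.13 and the summed level 92.1 to 106.6 with anthraquinone and 102 to 118 with corn oil. Of 11 endothelial genes the median was 0.01, and the vessel marker Pecam1 differed by -0.13, and by -0.46 on a dimmer probe. In these 5 lists together 0 genes passed with limma, 2 were higher and 7 lower at an unadjusted p under 0.05, where 17.1% of all entries had such a p, and the sums of the groups overlapped in each of the 5. The summed levels of the red cell lists overlapped too. They were 12.8 to 14.3 with anthraquinone and 12.6 to 14.4 with corn oil over the 13 membrane genes. Over the 24 late erythroblast and reticulocyte genes they were 297 to 307 with anthraquinone and 286 to 298 with corn oil. A sum weighs the brightest genes most. These were Slc4a1 and Cd47 in the first list and Hagh, Bcl2l1 and Prdx2 in the second, whereas Rhd, Add2 and Hemgn were dim. Of the red cell markers Slc4a1, Epb42, Klf1 and Ahsp, only Slc4a1 had groups without overlap. The amount of blood left in each sample was not recorded in the labels, and its part in the globin values was not tested.

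**Figure D4:**
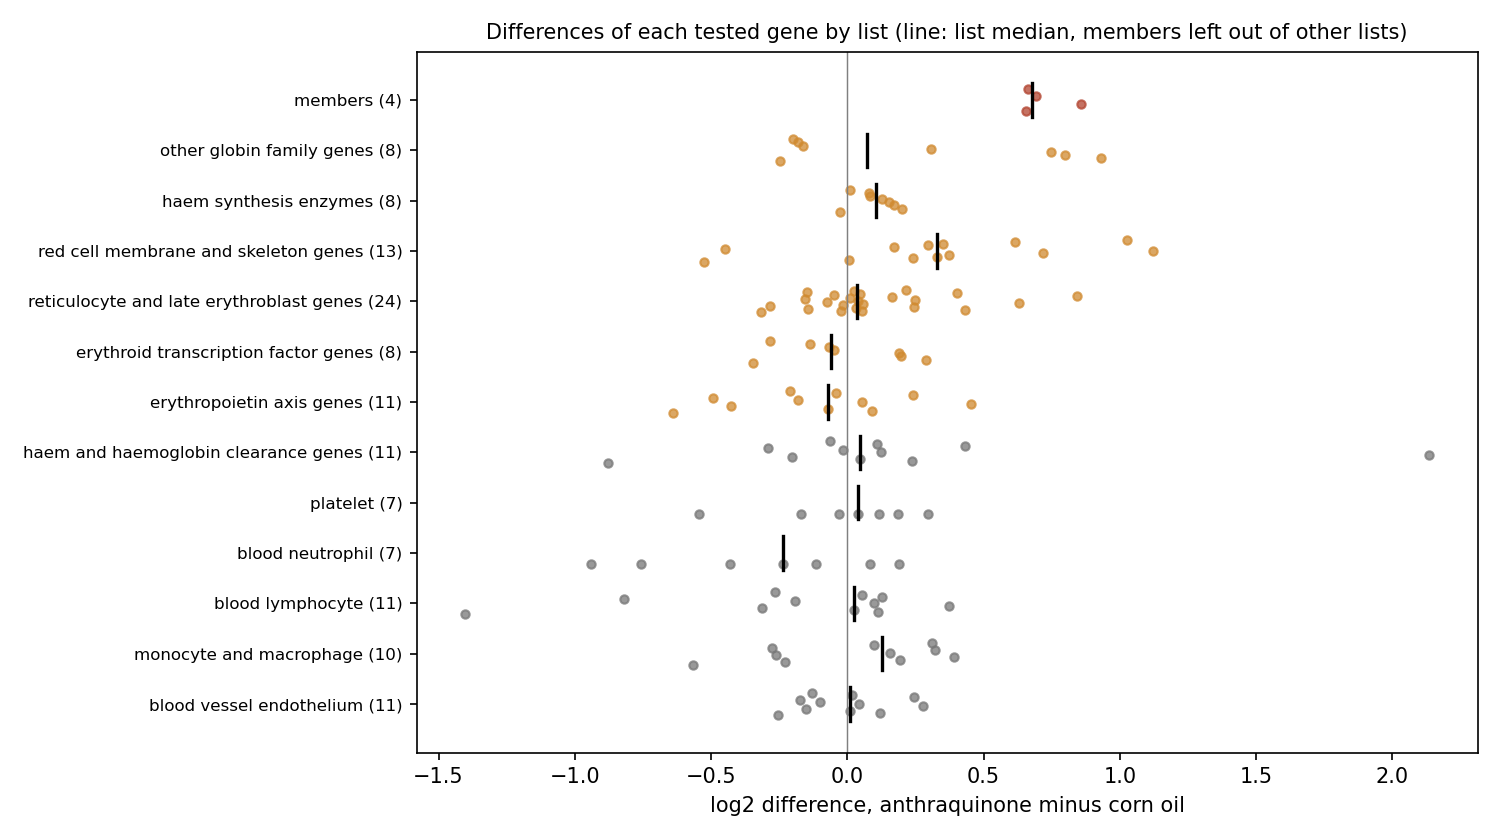
Log2 difference of each tested gene (x axis, anthraquinone minus corn oil) by list (y axis, number of genes in brackets, the 4 members shown on the top line only), with the list median as a black line. The 4 members lie between 0.66 and 0.86, and the red cell membrane list has a median of 0.33. The platelet, lymphocyte and endothelial medians lie between 0.01 and 0.04, the neutrophil median at -0.24 and the monocyte and macrophage median at 0.13.

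The genes most like the members were sought over 11236 named genes that were well above background on all arrays, by the Pearson correlation across the 6 arrays with the mean of the members' brightest probes. The 8 highest were Rhd (0.995), Hbb-bs (0.993), Klhl15 (0.992), Hbe2 (0.992), Snx15 (0.991), Hba-a3 (0.989), Cdc25b (0.986) and Hoxc9 (0.983). Of these, Rhd, Hbb-bs, Hbe2 and Hba-a3 are on the red cell and globin lists, and their differences were 1.03, 0.93, 0.80 and 0.75, whereas Klhl15, Snx15, Cdc25b and Hoxc9 differed by 0.22, 0.14, 0.50 and 0.24. When each group's mean was taken away, the 8 highest were Psmb9, Fam110a, Lrrn1, Mcrs1, Bcl6b, Klhl15, Dedd and Rapsn, at 0.993 to 0.999. Of the red cell genes above, Rhd was then at rank 18 with 0.985, Hba-a3 at rank 22, Hbb-bs at rank 23 and Hbe2 at rank 54 of 11236. With 6 arrays and this many genes, high values of this kind are a description of these arrays.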

How the data were processed

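Renal cortex RNA of 6 rats was measured on 1-colour Agilent arrays, with group and replicate read from each title. Per the file headers, the deposited scanner output gives linear spot intensity from Agilent Feature Extraction 10.7.1.1 (version 10.7 per the submitters' processing notes), and the processed intensity was corrected for background and spatial trend but not scaled between arrays. The authors also deposited a table of intensity per probe. Its columns were the processed intensity divided by the 75th percentile of the array, on a linear scale, with 90.7 to 97.0% of probes within 0.01 log2 of 1 constant. Its column medians were 0.109, 0.111 and 0.110 for anthraquinone and 0.109, 0.113 and 0.114 for corn oil, and no header states its scale or centring.

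The log2 processed intensity minus the 75th percentile of each array was used. Spots flagged as outliers were dropped. The filter on dim probes asked for the well-above-background flag on every array of either group (41310 of 61657 probes passed). Probes were named by unversioned accession through the RefSeq table of GRCr8, used for names and neighbours only since the array design is on another build per the file headers (27460 probes matched). Each gene was its brightest probe and unnamed probes stood alone. The lists held 217 symbols, of which 206 matched the table and 174 had a probe. The test was limma 3.58.1 (lmFit, then eBayes, under R 4.3.3), with Benjamini-Hochberg adjustment over 32663 entries at 0.05, of which 9 passed. The procedure was tested on simulated data. Sequences are from RefSeq, build GRCr8, and upstream windows were aligned with Biopython 1.88.

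The members and lists were chosen with earlier results of these data known. Named are all member probes, every tested globin, from each further list the genes past the threshold or otherwise the 2 with the largest difference, a fixed set of haem, erythropoietin and blood cell genes, and the 8 genes most like the members. Some genes of the lists are not reported here. For the blood cell and vessel lists only the fixed set is named. Alternatives were other scalings, normexp with offset 50 on median spot signals, the deposited table, no or a stricter filter, the mean of probes, the slide or replicate number as a block, and each array left out. Within-group deviations of same-numbered arrays correlated at 0.03, -0.06 and -0.01, and those of arrays with unlike numbers at -0.10 to 0.11. With 3 arrays per group this check cannot settle whether the numbers pair the animals.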

Additional observations from a re-analysis of the deposited data

How the results depend on the processing

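The differences of Hba-a1, Hbb, Hbb-b1 and Alas2 stayed above 0 in all 16 alternatives. In that order they were 0.43 to 0.77, 0.44 to 0.75, 0.47 to 0.80 and 0.63 to 1.01. The 16 were not independent checks. No filter, a stricter filter and the replicate number as a block left these differences unchanged. The slide as a block gave the same differences as leaving out corn oil replicate 1. The deposited table has the scaling used here and gave nearly the reported values. The differences moved by more than the spread between replicates for Hbb after quantile normalization (0.47). With no scaling, a setting chosen after seeing the data, those of Hba-a1 (0.43), Hbb (0.44) and Hbb-b1 (0.47) did so too. With each array left out the differences were 0.55 to 0.77, 0.55 to 0.75, 0.57 to 0.80 and 0.63 to 1.01. The count of all entries past the threshold, 9 as reported, was 16 with the normexp correction, 2 with the slide as a block, 125 with no scaling and 6611 with no filter on dim probes, and 1 to 25 with each array left out. Without the filter 1 other globin gene, 2 membrane genes, 1 gene of the erythropoietin axis and 2 of the marker genes of blood cells and vessels passed. The cause of these moves was not tested. The single call in the clearance list, Hmox1, was 0 with the slide as a block and with every array left out. With the replicate number as a block the count was 1 for all entries and 0 for the clearance list, and the 4 member differences did not change, since each number occurs in both groups. Whether the same-numbered arrays share more than a number was not settled. Gata1, Epo, Hbe1 and Cd163 were at or near background, so these arrays cannot show a difference in them.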
